A study of Mus musculus with 12 samples.

Results

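Heart tissue holds contracting cardiomyocytes beside fibroblasts, endothelial cells, the mural cells of vessels and immune cells, and a preparation of isolated cardiomyocytes can carry transcripts of all of these. The libraries richest in such transcripts are described here against the poorest. For each library the summed raw counts of the fibroblast genes *Dcn*, *Col1a1*, *Col3a1* and *Pdgfra* and the endothelial genes *Pecam1* and *Cdh5* were divided by the count of *Myh6*, the main myosin heavy chain of adult mouse cardiomyocytes. The 4 libraries with the highest ratio of 12 are called rich, and the 4 with the lowest are called poor. These libraries were chosen by measured values, so every difference between rich and poor libraries below is a description with no test.

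The study sequenced polyadenylated RNA of isolated heart cardiomyocytes from wild-type C57BL6 mice killed 16 weeks after surgery. There were 4 groups of 3 libraries: 5/6 nephrectomy (NX), a model of chronic kidney disease, with JV101; NX with saline; sham surgery with JV101; and sham surgery with saline. What JV101 contains, its dose and its time, and the age and sex of the mice are not stated in the labels used here. No genotype differed between groups. The labels number the replicates and do not say whether each is a separate animal, so the p-values below measure only the spread between these samples.

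Decorin (*Dcn*) is a small proteoglycan and *Col1a1* and *Col3a1* are fibrillar collagens, all made mainly by fibroblasts in the heart. *Pdgfra* is the growth factor receptor that marks cardiac fibroblasts. *Pecam1* and *Cdh5* are adhesion molecules at the junctions between endothelial cells. In bulk RNA of this kind, fewer cells of a type and less RNA per cell cannot be told apart.

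The ratio ran over 16.7-fold in the 12 libraries. The 4 rich libraries were NX JV101 2 at 19.2% of *Myh6*, sham JV101 1 at 16.7%, NX saline 3 at 8.67% and NX saline 2 at 7.18%. The poor ones were sham saline 2 at 3.52%, NX saline 1 at 3.30%, sham saline 1 at 2.49% and sham JV101 3 at 1.15%. Between them lay NX JV101 3 at 5.49%, sham saline 3 at 4.45%, NX JV101 1 at 3.92% and sham JV101 2 at 3.71%. NX saline 2 at 7.18% was just inside the rich set and NX JV101 3 at 5.49% just outside it. At the other end sham saline 2 at 3.52% was just inside the poor set and sham JV101 2 at 3.71% just outside, so that boundary was narrow. The rich set held 3 NX libraries and 1 sham library, and 2 JV101 and 2 saline ones. The poor set held 1 NX library and 3 sham libraries, and 1 JV101 and 3 saline ones. Surgery and injection were thus not balanced between the sets. In the lists of values that follow, the rich libraries are given in the order 19.2% to 7.18% and the poor ones in the order 3.52% to 1.15%.

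**Figure D1:**
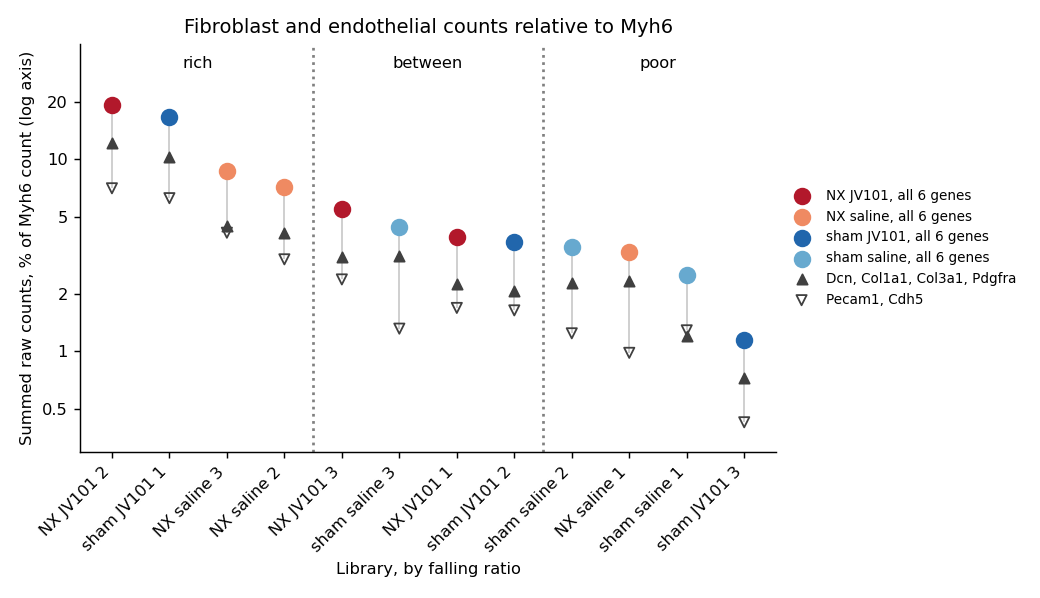
Summed raw counts of 6 fibroblast and endothelial genes as a percentage of the *Myh6* count (log axis) in each of 12 libraries, ordered by falling ratio and coloured by group; triangles give the 4 fibroblast and the 2 endothelial genes apart. The 4 rich libraries run from 19.2% to 7.18% and the 4 poor ones from 3.52% to 1.15%.

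Depth was alike in both sets. The rich libraries held 26.4 to 33.8 M counts and the poor ones 27.0 to 32.7 M. Mitochondrially encoded transcripts made up 41.1% to 66.5% of all counts in rich libraries and 36.7% to 69.0% in poor ones, which left 8.86 to 19.9 M and 8.38 to 20.7 M nuclear counts. One library of each set, NX saline 3 among the rich and sham saline 2 among the poor, had the highest mitochondrial share. The part of that share in the differences was not tested. The smallest sum of the 6 genes was 8578 counts and the smallest *Myh6* count was 232068, so counting error is small beside these differences.

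The samples are labelled cardiomyocytes, and myocyte genes were abundant in every library. Per length, *Myh6* averaged 2399 ± 865 FPKM over the 12 libraries, against 154 ± 94.3 FPKM for *Dcn* and 48.2 ± 27.8 FPKM for *Pecam1* (SD, n = 12). Measured in FPKM, *Dcn* reached 24.8%, 20.6%, 8.34% and 8.11% of the *Myh6* level in the rich libraries, against 4.49%, 3.64%, 2.49% and 1.41% in the poor ones. *Pecam1* reached 7.06%, 6.16%, 3.85% and 2.90% of the *Myh6* level in the rich libraries, against 1.36%, 0.866%, 1.04% and 0.404% in the poor ones. *Myh6* thus exceeded *Dcn* and *Pecam1* in the rich libraries too.

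The genes that set the ratio varied on both sides of it. On the log2 scale the ratio averaged 2.31 higher in the rich libraries, a 4.95-fold difference, of which 57.6% came from the 6 numerator genes and 42.4% from *Myh6*. Those percentages rest on counts scaled with TMM factors and given relative to library size (CPM), a scale that adjusts for the total and for the composition of each library. *Dcn* was at 595, 545, 347 and 335 CPM in the rich libraries, against 256, 196, 180.2 and 104 CPM in the poor ones. *Col1a1* was at 77.2, 83.5, 56.7 and 59.2 CPM in the rich libraries, against 41.0, 46.0, 16.1 and 14.97 CPM in the poor ones. *Pdgfra* was at 51.5, 46.3, 34.5 and 29.1 CPM in the rich libraries, against 22.7, 21.6, 15.2 and 8.93 CPM in the poor ones. For each of these fibroblast genes the 4 rich libraries lay above the 4 poor ones, by 1.33, 1.39 and 1.29 in mean log2 CPM. *Col3a1* was at 156, 152, 129 and 94.7 CPM in the rich libraries, against 72.3, 113, 51.0 and 33.8 CPM in the poor ones. NX saline 1 exceeded NX saline 2 for that gene, so the sets overlapped, with a difference of 1.09 in mean log2 CPM.

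The endothelial pair behaved alike. *Pecam1* was at 269, 258, 254 and 189.8 CPM in the rich libraries, against 123, 73.8, 119 and 47.4 CPM in the poor ones, a difference of 1.51 in mean log2 CPM. *Cdh5* was at 244, 244, 268 and 186 CPM in the rich libraries, against 90.7, 85.6, 162 and 47.9 CPM in the poor ones, a difference of 1.40 in mean log2 CPM. For both genes the sets did not overlap, and sham saline 1 was the highest or near the highest of the poor libraries. *Myh6* ran the other way, at 7252, 7977, 12569 and 12449 CPM in the rich libraries, against 17242, 16234, 21845 and 22305 CPM in the poor ones. The rich libraries lay below the poor ones for *Myh6*, by 0.98 in mean log2 CPM, and the libraries with the highest ratio, NX JV101 2 and sham JV101 1, had the lowest values.

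Fibroblast and endothelial genes did not keep a fixed proportion. The 4 fibroblast genes had 1.71, 1.65, 1.09 and 1.38 times the counts of the 2 endothelial genes in the rich libraries, against 1.83, 2.36, 0.934 and 1.70 times in the poor ones. The values of the sets overlapped. In raw counts NX JV101 2 and sham JV101 1 were high for both kinds of gene, while NX saline 3 had 10476 fibroblast and 9636 endothelial counts, close to equal. In CPM, NX saline 3 had the highest endothelial sum of the 12 libraries, 522 against 513 in NX JV101 2 and 501 in sham JV101 1. Its fibroblast sum was 567 CPM, against 880 in NX JV101 2 and 827 in sham JV101 1.

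Across the table, 14412 of 22794 genes passed a filter on low counts. The median log2 difference, rich minus poor, over these genes was 0.03, with quartiles of −0.24 and 0.45, and 52.4% were positive. A gene was counted as higher where all 4 rich libraries exceeded all 4 poor ones and the means differed by at least 1 in log2 CPM, and as lower by the mirrored rule. By this rule 978 genes were higher in the rich libraries (6.79% of 14412) and 107 were lower (0.742%). The 978 include *Dcn*, *Col1a1*, *Pdgfra*, *Pecam1* and *Cdh5*, whose counts chose the libraries. Without any minimum difference, 1829 genes (12.7%) lay wholly above and 1033 (7.17%) wholly below. These shares of all genes are the background for the counts given for each gene list below. The count of lower genes was 179 without NX saline 3, 226 without sham saline 2 and 193 without NX saline 1. With 1 library fewer the rule of no overlap is easier to meet, so these counts are not on the same footing as 107. Genes higher in the rich libraries thus outnumbered lower ones.

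**Figure D2:**
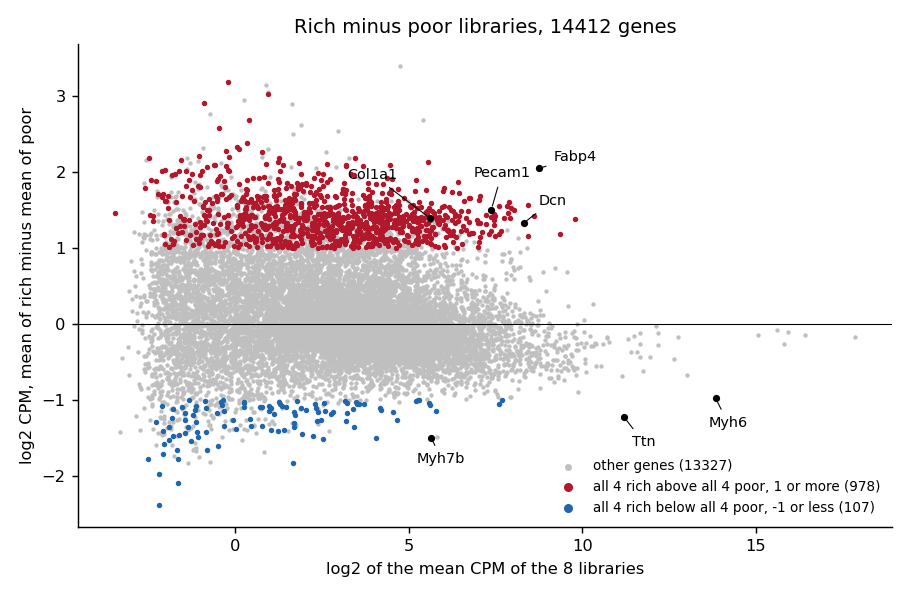
Each of 14412 genes by the log2 of its mean CPM over the 8 libraries (horizontal) and by the mean log2 CPM of the rich minus the poor libraries (vertical). The 978 red genes and the 107 blue genes had no overlap between the sets and differed by at least 1; *Myh6* (−0.98) was a rule gene and did not reach that difference.

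Scaling sets the zero of these values. The median of all genes moved to 0.18 with library totals in place of TMM factors and to 0.50 where each library was scaled to its sarcomere genes. With that second scaling the differences of all genes were read against the contractile machinery, 1768 genes were higher and 9 lower. The values below are on the TMM scale, where the median gene was close to 0.

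The 12 largest differences on the higher side were taken from genes with at least 5 CPM on average whose sets did not overlap. *Fabp4*, a fatty acid-binding protein of capillary endothelium and adipocytes, was at 598, 706, 684 and 747 CPM in the rich libraries, against 241, 167, 206 and 89.0 CPM in the poor ones. The lowest rich library was at more than 2 times the highest poor one. *Timp4*, a tissue inhibitor of metalloproteinases, was at 74.1, 64.1, 94.8 and 63.5 CPM in the rich libraries, against 41.8, 14.1, 16.1 and 8.09 CPM in the poor ones. *Rbp7*, a retinol-binding protein, was at 18.3, 20.6, 21.1 and 21.6 CPM in the rich libraries, against 8.14, 5.01, 5.63 and 2.28 CPM in the poor ones. The 4 rich libraries of *Rbp7* were close together, while sham JV101 3 was the lowest of the poor ones. *Nostrin*, which traffics endothelial nitric oxide synthase, was at 13.2, 11.8, 8.77 and 6.27 CPM in the rich libraries, against 3.12, 2.41, 3.12 and 0.958 CPM in the poor ones. *Ramp3*, a partner of the receptor for adrenomedullin, was at 10.7, 7.82, 9.26 and 5.17 CPM in the rich libraries, against 3.87, 2.16, 2.02 and 0.869 CPM in the poor ones. For all 5 of these genes sham JV101 3 had the lowest value of the 8 libraries.

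The other 7 of the 12 largest differences on this side included *Cxcl1*, a chemokine that attracts neutrophils, at 20.3, 21.3, 7.85 and 9.37 CPM in the rich libraries, against 6.64, 3.11, 2.25 and 1.92 CPM in the poor ones. NX JV101 2 and sham JV101 1 were more than 2 times as high as the other rich libraries for *Cxcl1*. *Scd1*, a desaturase that makes monounsaturated fatty acids, was at 17.8, 25.6, 28.0 and 71.2 CPM in the rich libraries, against 14.3, 10.5, 6.55 and 2.73 CPM in the poor ones. Its order among the rich libraries was the reverse of the ratio's order. *Meox1*, a homeobox factor of activated fibroblasts, was at 19.5, 16.1, 17.7 and 10.4 CPM in the rich libraries, against 4.50, 6.08, 5.19 and 1.62 CPM in the poor ones. *Adh1*, an alcohol dehydrogenase that also oxidises retinol, was at 18.6, 16.5, 16.6 and 16.2 CPM in the rich libraries, against 7.56, 3.68, 4.81 and 2.55 CPM in the poor ones. The remaining 3, *Fam107a*, *Tmem200b* and *Stmn2*, differed by 2.19, 2.08 and 1.98 in mean log2 CPM.

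Fibroblast genes outside the ratio were higher throughout. Of 24 listed and measured, 24 had a positive difference, 20 lay wholly above the poor libraries and 19 met the rule for higher, with a median log2 difference of 1.38. *Mfap5*, a microfibril protein, was at 26.1, 28.7, 14.5 and 17.8 CPM in the rich libraries, against 10.5, 8.14, 3.71 and 4.22 CPM in the poor ones. *Postn*, a matrix protein of activated fibroblasts, was at 45.3, 35.6, 24.8 and 30.6 CPM in the rich libraries, against 14.8, 13.3, 8.83 and 5.99 CPM in the poor ones. *Mfap4* and *Medag* differed by 1.82 and 1.55. *Tcf21*, the transcription factor of the fibroblast lineage, and *Ddr2*, a collagen receptor, differed by 1.37 and 1.47 with no overlap. The sets overlapped for *Fbln1* (0.75), *Pcolce* (0.77), *Lamc3* (0.05) and *Vcam1* (1.64).

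Endothelial genes outside the ratio were higher by a like amount. All 25 listed genes were measured and positive, 21 lay wholly above the poor libraries, all 21 met the rule for higher, and the median log2 difference was 1.43. *Gpihbp1*, which holds lipoprotein lipase on capillary walls, was at 98.1, 96.8, 104 and 92.2 CPM in the rich libraries, against 42.9, 25.5, 38.3 and 15.3 CPM in the poor ones. *Sox18*, a transcription factor of vessels, was at 65.0, 56.8, 62.4 and 37.5 CPM in the rich libraries, against 25.6, 15.8, 19.9 and 8.42 CPM in the poor ones. *Ly6c1* and *Rgcc* differed by 1.69 and 1.89. Receptors of the vessel wall were higher too: *Tek* differed by 1.37, *Tie1* by 1.28 and *Flt1* by 1.44, each with no overlap. The sets overlapped for *Kdr* (1.24), *Cldn5* (1.28), *Cd93* (1.02) and *Tmem100* (0.18). The mean score of the list, its log2 CPM relative to the mean of 12 libraries, was 0.86, 0.76, 0.90 and 0.38 in the rich libraries, against −0.31, −0.84, −0.04 and −1.52 in the poor ones.

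Endocardium and lymphatic vessels are lined by related cells. All 9 endocardial genes were positive, with a median of 0.85, and 4 did not overlap. *Cytl1* alone met the rule for higher, where 6.79% of all genes did. *Npr3* and *Nfatc1*, a natriuretic peptide receptor and a factor of valve development, differed by 0.57 and 0.54. Among 7 lymphatic genes, 2 receptors met the rule for higher. *Lyve1*, which binds hyaluronan, was at 57.4, 52.2, 38.4 and 47.2 CPM in the rich libraries, against 33.4, 28.6, 12.3 and 10.5 CPM in the poor ones. *Flt4*, a receptor for vascular growth factors, was at 32.9, 29.1, 33.8 and 22.8 CPM in the rich libraries, against 21.8, 11.3, 12.2 and 6.92 CPM in the poor ones. *Prox1*, the lymphatic master factor that cardiomyocytes also express, was lower at 18.2, 23.3, 19.0 and 22.2 CPM in the rich libraries, against 28.3, 33.2, 55.9 and 43.5 CPM in the poor ones. The list therefore did not move as one.

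Cells around the vessels showed the same direction. All 12 pericyte genes were positive, with a median of 1.501, and 4 did not overlap, all of them meeting the rule for higher. *Rgs5*, a regulator of G protein signalling that marks pericytes, was at 635, 564, 475 and 349.5 CPM in the rich libraries, against 211, 143, 328 and 76.9 CPM in the poor ones. *Colec11* was at 15.8, 16.2, 9.75 and 9.46 CPM in the rich libraries, against 5.14, 2.54, 6.35 and 2.28 CPM in the poor ones. *Pdgfrb* and *Notch3*, receptors of mural cells, differed by 1.15 and 1.10 with overlap. Of 10 smooth muscle genes described of 11 listed, 8 were positive and 5 met the rule for higher, among them *Tagln*, an actin-binding protein, at 28.6, 22.5, 16.8 and 14.9 CPM in the rich libraries, against 10.1, 6.72, 7.52 and 3.08 CPM in the poor ones. *Acta2*, smooth muscle actin, differed by 0.24 with overlap, and *Smtn* and *Synpo2* lay wholly below by −0.49 and −0.54. The summed level of the smooth muscle list was 257 to 269 CPM in the rich libraries and 254 to 291 CPM in the poor ones.

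Macrophage genes were higher. All 20 were positive, with a median of 1.23, 11 did not overlap and 10 met the rule for higher. *Cd163*, a scavenger receptor of resident macrophages, was at 54.6, 62.4, 43.9 and 56.7 CPM in the rich libraries, against 37.5, 25.7, 15.4 and 11.8 CPM in the poor ones. *Mertk*, a receptor for dying cells, was at 19.4, 15.8, 19.9 and 13.7 CPM in the rich libraries, against 9.41, 6.50, 9.29 and 3.23 CPM in the poor ones. *Adgre1*, which encodes F4/80, was at 23.5, 19.8, 16.0 and 14.3 CPM in the rich libraries, against 10.6, 11.3, 6.96 and 3.35 CPM in the poor ones. The complement genes *C1qa*, *C1qb* and *C1qc* differed by 1.28, 1.17 and 1.23. *Cx3cr1* (0.44) and *Csf1r* (1.02) overlapped.

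Genes of other blood cells overlapped between the sets. Of 8 neutrophil genes described, 7 were positive with a median of 1.08 and none was free of overlap. *S100a9*, an alarmin of neutrophils, was at 3.77, 18.9, 2.27 and 11.2 CPM in the rich libraries, against 0.981, 10.5, 0.256 and 0.958 CPM in the poor ones. The poor library NX saline 1 exceeded 2 of the rich ones for *S100a9*. Of 6 lymphocyte genes 4 were positive, with a median of 0.23, and *Cd79a*, part of the B cell receptor, was at 0.990, 0.821, 4.01 and 1.32 CPM in the rich libraries, against 4.10, 0.285, 0.665 and 0.419 CPM in the poor ones. Haemoglobin genes were highest in a poor library: *Hbb-bs* was at 41.6, 72.2, 123 and 40.3 CPM in the rich libraries, against 349.5, 81.5, 13.5 and 7.82 CPM in the poor ones. Platelet genes were measured for 3 of 6, all positive and all with overlap.

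Mesothelial genes, which mark the outer lining of the heart, were spread across both sets. Of 11 genes 5 were positive, with a median of −0.08 whose sign changed in 9 alternatives, and none was free of overlap. *Muc16* was at 2.50, 3.61, 12.1 and 6.50 CPM in the rich libraries, against 8.26, 9.92, 5.71 and 4.16 CPM in the poor ones. *Wt1*, also present in some endothelial cells, was at 9.17, 9.55, 11.4 and 7.27 CPM in the rich libraries, against 5.43, 5.61, 7.29 and 1.89 CPM in the poor ones. NX saline 3 had the highest value of the 8 libraries for both.

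All 8 adipocyte genes described were positive, with a median of 2.48, and 3 lay wholly above and met the rule for higher. These were *Fabp4*, given above, *Pparg* and *Ucp1*. *Pparg*, the regulator of fat storage, was at 19.6, 16.7, 25.3 and 16.2 CPM in the rich libraries, against 8.72, 6.47, 7.04 and 2.91 CPM in the poor ones. The defining adipocyte markers were near 0 and overlapped between the sets: *Adipoq* ranged from 0 to 2.13 CPM in the rich libraries and from 0 to 0.0634 CPM in the poor ones, and *Plin1* from 0.0274 to 2.53 CPM against 0 to 0.127 CPM. *Adipoq* was at 0 counts in 3 of 12 libraries and *Plin1* in 2. *Ucp1*, of brown fat, was at 0.410 to 4.28 CPM in the rich libraries and 0 to 0.231 CPM in the poor ones. The score of the adipocyte list was 0.96, −0.75, 1.325 and 2.71 in the rich libraries, against −0.91, −0.85, −1.92 and −2.11 in the poor ones. In the libraries between, by falling ratio, it was 2.16, 0.94, −0.22 and −1.33, so it did not follow the ratio closely. With log2(FPKM + 1) the median of the list was 1.10. Airway genes all overlapped. The secretoglobin *Scgb1a1* was at 4.10, 0.0274, 80.1 and 108 CPM in the rich libraries, against 0, 0, 3.22 and 19.98 CPM in the poor ones. It was high in NX saline 3 and NX saline 2 of the rich set and in sham JV101 3 of the poor set, and at or near 0 in the others except NX JV101 2 and sham saline 1. Their part in the differences was not tested. Schwann cell genes were positive for 6 of 7, and *Cdh19* alone met the rule for higher, where 6.79% of all genes did.

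**Figure D3:**
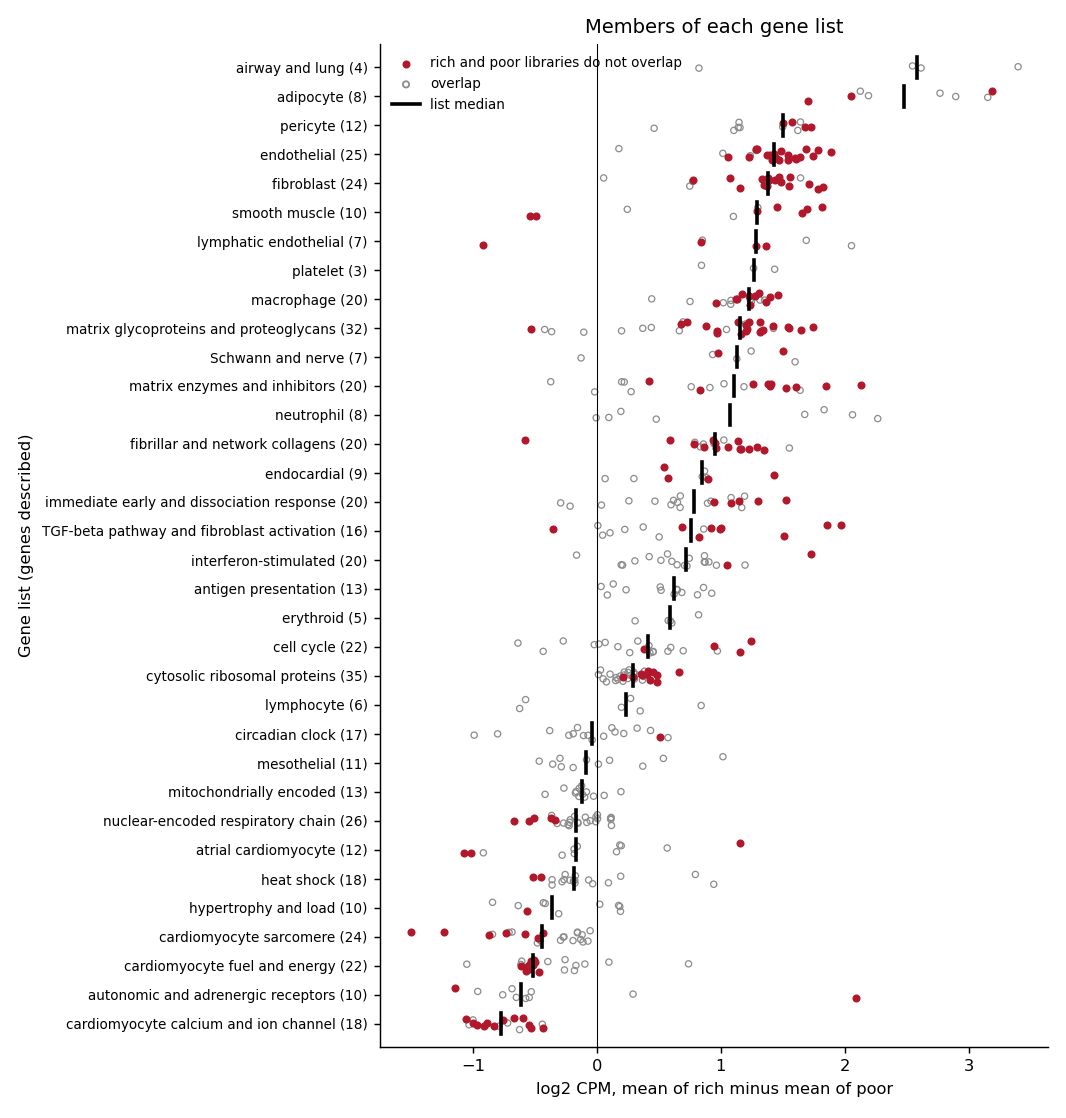
Each dot is a gene of a list, placed by its mean log2 CPM in the rich minus the poor libraries; filled dots are genes whose sets do not overlap, and bars are list medians, with the number of genes in brackets. Vascular, fibroblast, macrophage and matrix lists sit to the right of 0 (medians 1.43, 1.38, 1.23 and 1.15 for endothelial, fibroblast, macrophage and matrix glycoprotein genes), and myocyte ion channel, fuel and sarcomere lists to the left (−0.77, −0.51 and −0.44).

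Matrix genes are shared by fibroblasts, endothelium and mural cells. Of 20 collagens outside the ratio 19 were positive and 13 lay wholly above, with a median of 0.96. *Col1a2*, the partner chain of *Col1a1*, was at 141, 144, 101 and 104 CPM in the rich libraries, against 67.9, 65.2, 39.7 and 28.6 CPM in the poor ones. *Col6a2* and *Col5a2* differed by 1.23 and 1.16, and the basement membrane chains *Col4a1* and *Col4a2* by 0.95 and 0.59. *Col4a5*, another basement membrane chain, lay wholly below, by −0.58. Of 32 glycoproteins and proteoglycans 28 were positive, 20 lay wholly above, 15 met the rule for higher, and the median was 1.15. *Sparc*, a collagen-binding protein, was at 359.9, 363, 338 and 282 CPM in the rich libraries, against 152, 135, 127 and 64.9 CPM in the poor ones. *Vcan*, a large proteoglycan, was at 27.3, 29.2, 17.0 and 17.1 CPM in the rich libraries, against 8.26, 16.4, 4.32 and 3.05 CPM in the poor ones. The laminin chains did not move together: *Lamc1* differed by 0.97, *Lama2* by 0.37 with overlap, and *Lamb2* lay wholly below by −0.53.

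Enzymes that process matrix were positive in 18 of 20 cases, 10 lay wholly above and 8 met the rule for higher, with a median of 1.11. *Lox*, which crosslinks collagen, was at 7.31, 5.20, 6.07 and 5.86 CPM in the rich libraries, against 4.56, 2.19, 1.33 and 0.509 CPM in the poor ones. *Timp3* was at 294, 339, 394 and 398 CPM in the rich libraries, against 249.6, 106, 118 and 73.0 CPM in the poor ones. *Adamts5*, a protease of proteoglycans, was at 26.9, 36.2, 29.5 and 27.3 CPM in the rich libraries, against 7.97, 19.1, 9.52 and 6.14 CPM in the poor ones. The collagen hydroxylases *P4ha1*, *P4ha2*, *Plod1* and *Plod2* differed by −0.02, −0.37, 0.28 and 0.20, all with overlap.

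Genes of TGF-beta signalling and fibroblast activation were positive in 15 of 16 cases, with a median of 0.76, and 3 met the rule for higher. These were *Meox1*, given above, *Cilp* and *Comp*. *Cilp*, a matrix protein that binds TGF-beta, was at 19.1, 14.1, 8.99 and 11.4 CPM in the rich libraries, against 3.52, 8.05, 2.35 and 2.28 CPM in the poor ones. *Comp*, a pentameric matrix protein, was at 4.88, 3.20, 3.36 and 2.41 CPM in the rich libraries, against 1.10, 1.01, 1.28 and 1.17 CPM in the poor ones. Among ligands *Tgfb1* differed by 0.99 and *Tgfb3* by 0.82 without overlap, and *Tgfb2* by 0.22 with overlap. The receptor *Tgfbr2* differed by 0.69 without overlap and *Tgfbr1* by 0.37 with overlap. The inhibitor *Smad7* was at 28.1, 22.8, 27.6 and 21.2 CPM in the rich libraries, against 20.7, 10.4, 12.9 and 8.39 CPM in the poor ones. The signal transducer *Smad3* lay wholly below by −0.35, and the target *Ccn2* differed by 0.05.

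Myocyte genes were lower, by less than the non-myocyte genes were higher. Of 24 sarcomere genes other than *Myh6* all 24 were negative, 7 lay wholly below, 2 met the rule for lower and the median was −0.44. *Ttn*, the giant spring protein titin, was at 757, 1104, 2110 and 1970 CPM in the rich libraries, against 2990, 2427, 3413 and 4243 CPM in the poor ones. *Myh7b*, a minor myosin heavy chain, was at 11.7, 23.5, 33.3 and 43.5 CPM in the rich libraries, against 62.9, 55.4, 75.4 and 98.1 CPM in the poor ones. *Nebl*, a protein of the Z disc, differed by −0.87. Short transcripts for thin filament and light chain proteins differed less, for instance *Myl2* by −0.11, *Tnnc1* by −0.16 and *Tnni3* by −0.19, all with overlap. The lengths used here are those that the deposited counts and FPKM imply for each gene. By this length, the 12 shortest sarcomere genes (721 to 2985 bases) had a median of −0.16 and 1 lay wholly below. The 12 longest (3065 to 117640 bases) had a median of −0.70 with 6 wholly below. This order by length was looked at after the values were seen. Over all genes, the medians of 4 equal classes of length, from shortest to longest, were 0.04, 0.02, 0.03 and 0.00. The share meeting the rule for lower was 0.50%, 0.64%, 0.67% and 1.17% in these classes. The share meeting the rule for higher was 5.75%, 7.44%, 7.74% and 6.22%. When each library was scaled to its sarcomere genes, the sarcomere median was 0.03, which that scaling fixes near 0, and the fibroblast and endothelial medians were 1.85 and 1.90.

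Calcium handling and ion channel genes were lower as a group. All 18 were negative, 12 lay wholly below, 2 met the rule for lower, and the median was −0.77. *Cacnb2*, a subunit of the L-type calcium channel, was at 24.9, 22.8, 30.3 and 24.4 CPM in the rich libraries, against 41.0, 46.0, 59.8 and 60.1 CPM in the poor ones. *Slc8a1*, the sodium-calcium exchanger, was at 133, 141, 193 and 201 CPM in the rich libraries, against 252, 389.6, 301 and 358 CPM in the poor ones. *Ryr2*, the calcium release channel, and *Atp2a2*, the calcium pump of the sarcoplasmic reticulum, differed by −0.89 and −0.67 without overlap, and their partner *Pln* by −0.44 without overlap. The potassium channels *Kcnj2* and *Kcnd2* differed by −1.03 and −0.999 with overlap. Scaled to sarcomere genes, the median of this list was −0.30, so its sign did not turn.

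Genes of fuel use were lower by less. Of 22, 20 were negative, 10 lay wholly below, 0 met the rule for lower and the median was −0.51, which became −0.04 when scaled to sarcomere genes. *Hadha*, an enzyme of fatty acid oxidation, was at 541, 641, 790.5 and 798 CPM in the rich libraries, against 1114, 964, 1097 and 1014 CPM in the poor ones. *Pdk4* (0.74) and *Cox7a1* (0.10) were the positive members. Of 26 nuclear genes of the respiratory chain 20 were not positive, 5 lay wholly below and the median was −0.17, which became 0.30 when scaled to sarcomere genes. The 13 mitochondrially encoded genes had a median of −0.12, all overlapped, and the sign turned in 8 alternatives.

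Atrial and autonomic genes were mixed. Of 12 atrial genes 5 were positive, with a median of −0.17 whose sign turned in 5 alternatives. *Kcnj3* and *Kcnj5*, the 2 chains of the muscarinic potassium channel, met the rule for lower. *Kcnj3* was at 27.1, 26.1, 36.5 and 32.9 CPM in the rich libraries, against 46.5, 45.3, 95.7 and 81.7 CPM in the poor ones. *Kcnj5* was at 24.0, 23.0, 25.5 and 23.8 CPM in the rich libraries, against 34.3, 45.3, 62.2 and 58.9 CPM in the poor ones. *Chrm2*, the muscarinic receptor that opens this channel, was lower too, at 28.8, 25.3, 49.2 and 35.1 CPM in the rich libraries, against 57.0, 74.6, 85.9 and 82.9 CPM in the poor ones. *Nr2f2*, a factor of atrial myocytes, veins and fibroblasts, was higher at 11.2, 9.71, 8.12 and 8.42 CPM in the rich libraries, against 5.02, 4.79, 4.55 and 2.67 CPM in the poor ones. *Sln*, *Nppa* and *Myl7*, other atrial genes, differed by 0.57, 0.18 and 0.16 with overlap. Of 10 autonomic genes 8 were negative, with a median of −0.61. *Adrb1*, the main beta receptor of myocytes, differed by −0.57 with overlap.

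The 12 largest differences on the lower side, by the same minimum of 5 CPM, included *Myh7b*, *Ttn* and *Cacna1s*, a calcium channel subunit best known from skeletal muscle. *Itgb6*, an integrin chain, was at 3.13, 5.63, 2.11 and 1.72 CPM in the rich libraries, against 7.04, 9.76, 9.34 and 7.01 CPM in the poor ones. *Carns1*, the enzyme that makes carnosine, was at 5.35, 8.15, 11.4 and 10.1 CPM in the rich libraries, against 15.5, 22.9, 27.3 and 33.6 CPM in the poor ones. *Rnf207*, a ubiquitin ligase linked to cardiac repolarisation, was at 8.62, 12.9, 18.1 and 21.7 CPM in the rich libraries, against 26.2, 31.5, 38.0 and 46.7 CPM in the poor ones. *Colq*, the collagen tail of acetylcholinesterase, and *Slc22a3*, a transporter of organic cations, differed by −1.26 and −1.28. The others, *Lrrc4b*, *Grip2*, *Slc22a23* and *Pm20d1*, differed by −1.35, −1.27, −1.18 and −1.16. Apart from *Ttn*, *Myh7b* and *Rnf207*, the members of this group were at 33.6 CPM or less in each of the 8 libraries.

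Immediate early genes are induced within minutes in stressed cells. Of 20 listed here, 18 were positive, 5 lay wholly above, 4 met the rule for higher and the median was 0.78. *Cebpd*, an inflammatory transcription factor, was at 73.4, 64.2, 36.7 and 43.1 CPM in the rich libraries, against 34.5, 12.4, 28.3 and 8.93 CPM in the poor ones. *Junb*, a subunit of AP-1, was at 317, 253, 214 and 199 CPM in the rich libraries, against 198, 69.5, 109 and 61.7 CPM in the poor ones. *Klf6* and *Ier2* differed by 1.08 and 1.14. *Fos* and *Jun* differed by 0.67 and 0.60 with overlap, and *Nr4a1* by 0.04. For *Junb* the lowest rich library, NX saline 2, stood just above the highest poor one, sham saline 2.

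Heat shock genes did not follow. Of 18 genes 4 were positive, with a median of −0.18 whose sign turned in 4 alternatives. *Hspd1* and *Hspa4l*, chaperones, lay wholly below by −0.45 and −0.51, and *Hspd1* turned to 0.02 when scaled to sarcomere genes. No other member was free of overlap, so the count of 2 was near the 7.17% of all genes wholly below. The inducible *Hspa1b* was at 82.5, 5.44, 20.1 and 7.82 CPM in the rich libraries, against 130.4, 3.42, 4.22 and 2.67 CPM in the poor ones. It was high in NX JV101 2 of the rich set and in sham saline 2 of the poor set, and at most 20.1 CPM in the other 6 libraries. Load-responsive genes had a median of −0.36 with 4 of 10 positive, and the median turned to 0.11 when scaled to sarcomere genes. *Xirp2*, an actin-binding repeat protein, was the only member without overlap, wholly below by −0.56, where 7.17% of all genes lay wholly below. The natriuretic peptide gene *Nppb* differed by −0.31 with overlap.

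Interferon and antigen presentation genes were high in a library of each kind. Of 20 interferon genes 19 were positive and 2 met the rule for higher, with a median of 0.72. The same 2 genes were those wholly above, so both counts were near the 6.79% and 12.7% of all genes. *Ifi27l2a* was at 21.0, 19.7, 9.59 and 12.8 CPM in the rich libraries, against 4.33, 7.10, 4.22 and 3.11 CPM in the poor ones. *Oas2*, an antiviral enzyme, was at 17.1, 17.1, 21.4 and 18.5 CPM in the rich libraries, against 15.6, 5.77, 13.5 and 5.09 CPM in the poor ones. Of 13 antigen presentation genes all 13 were positive, none was free of overlap and the median was 0.62. *B2m*, the light chain of class I molecules, was at 309, 327, 396 and 156 CPM in the rich libraries, against 166, 120.2, 384 and 85.8 CPM in the poor ones. For *B2m* NX saline 2 was the lowest of the rich libraries and sham saline 1 the highest of the poor ones, close to NX saline 3.

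Ribosomal and cell cycle genes differed by less. All 35 ribosomal protein genes were positive, 12 lay wholly above and 0 met the rule for higher, with a median of 0.29. *Rpl3* was at 159.8, 141, 136 and 116 CPM in the rich libraries, against 91.2, 105, 78.7 and 75.6 CPM in the poor ones. Of 22 cell cycle genes 18 were positive, with a median of 0.41. Of these 4 lay wholly above and 2 met the rule for higher, near the 12.7% and 6.79% of all genes. The 2 were the replication licensing genes *Mcm3* and *Mcm6*. *Mcm3* was at 6.90, 7.55, 7.10 and 5.17 CPM in the rich libraries, against 2.66, 3.68, 3.33 and 1.77 CPM in the poor ones. *Mcm6* was at 9.97, 8.92, 9.32 and 6.76 CPM in the rich libraries, against 4.21, 4.94, 4.50 and 2.34 CPM in the poor ones. *Cenpf*, a mitotic kinetochore gene, differed by −0.64 with overlap. Of 17 clock genes 8 were positive, with a median of −0.04 whose sign turned in 7 alternatives. Only *Bhlhe40* was free of overlap, wholly above by 0.51, where 12.7% of all genes lay wholly above.

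**Figure D4:**
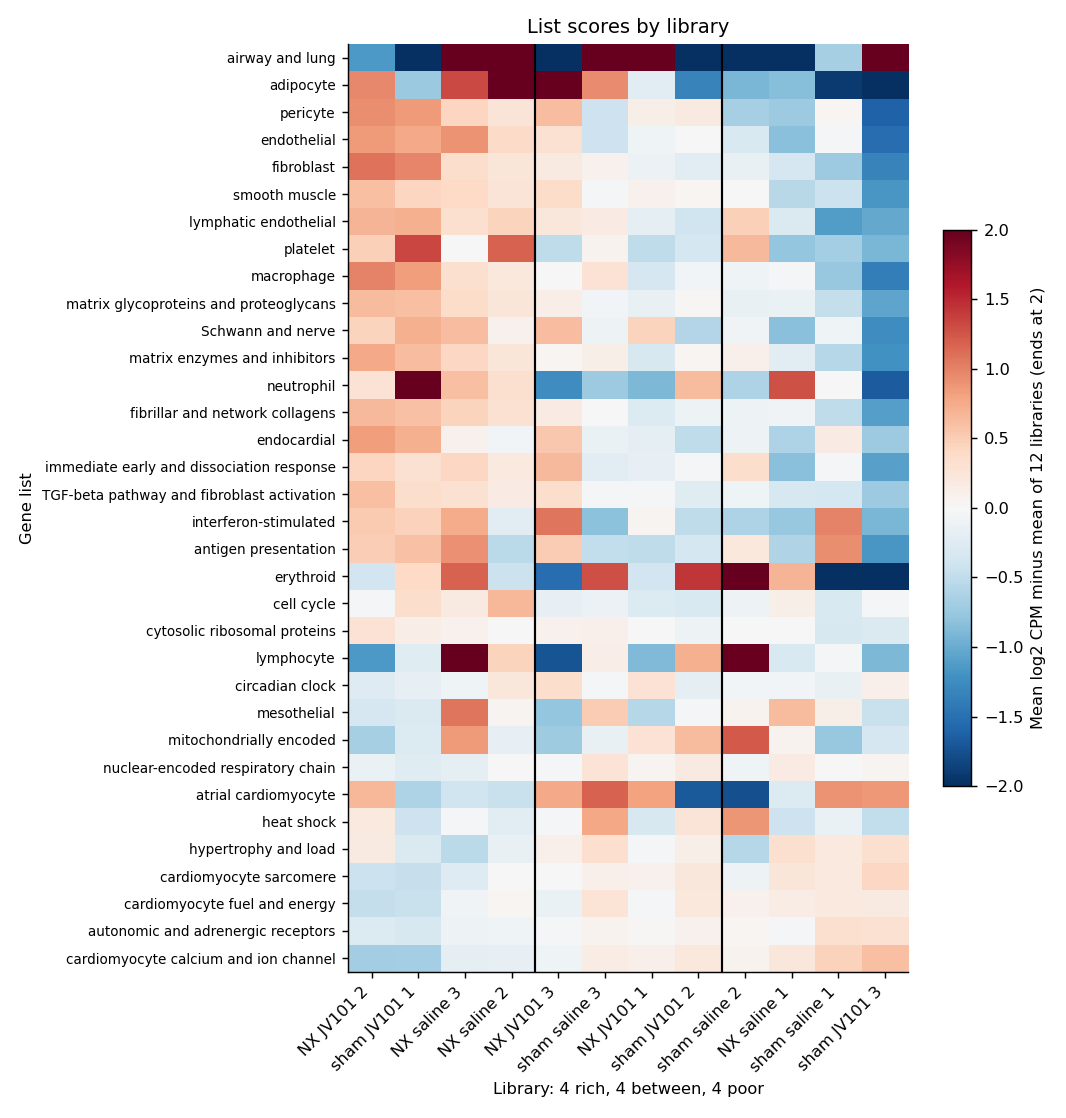
Scores of each gene list (log2 CPM relative to each gene's 12-library average, averaged over the list) in every library, from rich (left) to poor (right), with colours ending at 2 and −2. Endothelial scores were 0.86, 0.76, 0.90 and 0.38 in the rich libraries and −0.31, −0.84, −0.04 and −1.52 in the poor ones, while airway, lymphocyte and mesothelial scores change from library to library within a set.

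The 112 higher and 7 lower genes found in the lists were a small part of the 978 and 107. *Dcn*, *Col1a1*, *Pdgfra*, *Pecam1* and *Cdh5*, genes of the ratio itself, are among the 112. The median length implied by counts and FPKM was 3754 bases for higher genes, 4710 for lower genes and 3662 for all genes. The median level of higher genes was 9.41 CPM in the rich libraries and 3.88 CPM in the poor ones, that of lower genes 1.25 and 2.79 CPM, and that of all genes 9.20 and 8.43 CPM.

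The 4 libraries between the sets took no part in choosing these genes by their values, although the rule ranked them by the 7 genes of the ratio. NX JV101 3, with the highest ratio of the 4, exceeded the mean of the other 3 for 846 of the higher genes (86.5%). It did so for 31 of the lower genes (29.0%) and for 7777 of all genes (54.0%). NX JV101 3 was picked by the ratio, and the higher and lower genes were chosen by a split on that ratio. Genes chosen so vary together, and their counts are not separate observations. The counts describe where NX JV101 3 lies and are no independent check. *Dcn* was at 308, 311, 263 and 258 CPM in the 4 libraries between the sets and *Myh6* at 14462, 15401, 15937 and 17948 CPM, in order of falling ratio. *Pecam1* was at 159, 101, 122 and 141 CPM, with sham saline 3 the lowest. That library also had the highest proportion of fibroblast to endothelial counts of the 12, at 2.39.

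Both kinds of library occurred within single study groups, which holds surgery and injection constant. In NX saline, replicates 3 and 2 were rich and replicate 1 poor, and the difference of the 2 rich libraries from the poor one had a median of 0.60 over fibroblast genes, 1.52 over endothelial genes, 1.16 over pericyte genes and 0.34 over macrophage genes. In sham JV101, replicate 1 was rich and replicate 3 poor, and these medians were 2.42, 2.38, 2.57 and 2.28. Sarcomere genes had medians of −0.37 and −0.84 and ion channel genes of −0.38 and −1.31 in NX saline and sham JV101. The medians of all genes were 0.06 and 0.02. The directions of these 6 lists were thus the same within each group, and the sizes were larger in sham JV101. The ratio still chose the libraries within each group, so these directions are no independent check. It also stood further apart in sham JV101 (16.7% against 1.15%) than in NX saline (8.67% and 7.18% against 3.30%). Other lists turned: neutrophil genes had medians of −0.88 and 3.76, haemoglobin and other erythroid genes −0.26 and 3.20, and airway genes 7.71 and −5.36. With 1 poor library in each group, these values have no replicate check.

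Most of the spread of the ratio lay within the study's groups. Of the sum of squares of the log2 ratio over the 12 libraries, 83.5% was within groups, as were 86.8% for log2 CPM of *Dcn*, 88.1% for *Pecam1* and 79.8% for *Myh6*. With 12 libraries in 4 groups, most of a sum of squares falls within groups on average even where the groups do not differ. The ratio averaged 9.54 ± 8.41% in NX JV101, 6.38 ± 2.77% in NX saline, 7.17 ± 8.31% in sham JV101 and 3.48 ± 0.980% in sham saline (SD, n = 3 each). It was 7.96 ± 5.86% over NX libraries and 5.33 ± 5.66% over sham libraries (SD, n = 6 each). The difference in mean log2 ratio, NX minus sham, was 0.82, with an exact two-sided permutation p of 0.225 and an adjusted p of 0.450 over the 2 factors. Without sham JV101 1 it was 1.25 (exact permutation p = 0.0325, adjusted p = 0.0649), and leaving out any other library gave 0.48 to 1.02. JV101 libraries averaged 8.36 ± 7.59% and saline libraries 4.93 ± 2.44% (SD, n = 6 each), with a difference in log2 ratio of 0.31 (exact permutation p = 0.660, adjusted p = 0.660). Without NX JV101 2 that difference was −0.04 and without sham JV101 1 it was −0.0031. The effect of NX on the log2 ratio was 0.05 larger in JV101 than in saline libraries (exact permutation p = 0.985). A difference of the ratio between groups was thus not detectable with this spread.

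**Figure D5:**
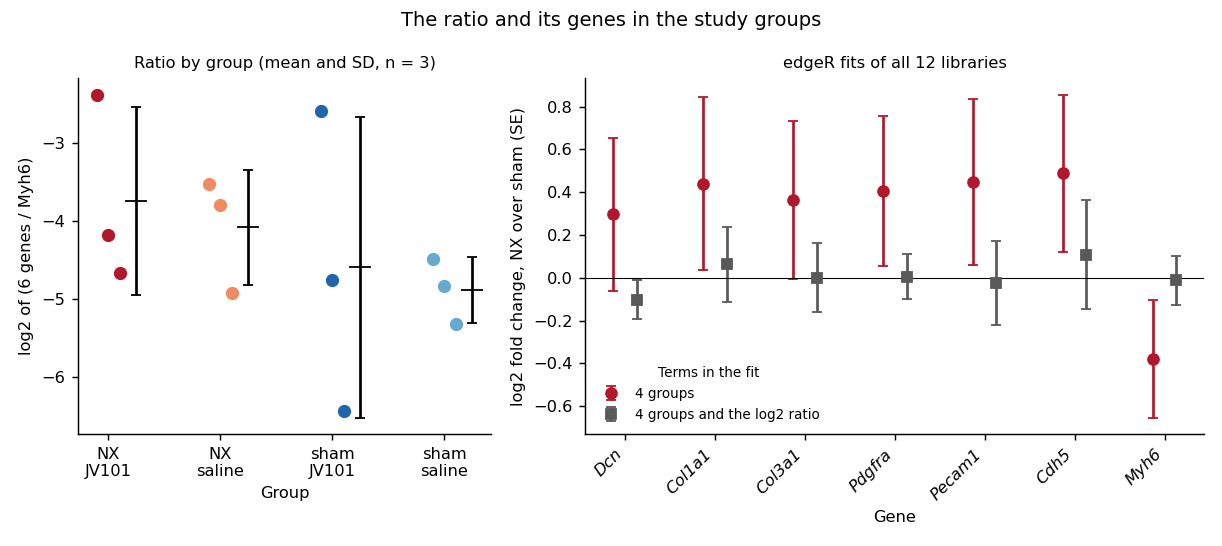
Left, the log2 ratio of the 6 genes to *Myh6* in each library by group, with the mean and SD of 3 libraries. Right, log2 fold changes of the 7 rule genes, NX over sham, with standard errors, from edgeR fits of 12 libraries with the 4 groups alone (circles) and with the log2 ratio as a further term (squares); *Dcn* is 0.30 and −0.10, and the standard errors shrink with the ratio in the fit.

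The study's own comparisons were fitted across all 14412 genes with edgeR's quasi-likelihood test. In NX against sham, JV101 against saline and NX saline against sham saline, 0 genes passed an adjusted p of 0.05 (0.0% each), with 629, 329 and 524 genes at an unadjusted p under 0.05 and smallest adjusted p of 0.860, 0.763 and 0.994. DESeq2 called 1, 5 and 1 genes and limma on log2(FPKM + 1) called 0, 0 and 0. The count at an unadjusted p under 0.05 for NX against sham rested on single libraries: it was 2646 without sham JV101 1 and 1071 without NX saline 1. Among the genes with the smallest p, the cold-inducible RNA-binding gene *Rbm3* had a log2 fold change of 0.58 (SE 0.12), *Niban3* −1.57 (SE 0.29) and *Gm32113* −0.80 (SE 0.17) in NX over sham, and the mesothelial genes *Lrrn4* and *Msln* −1.33 (SE 0.22) and −1.02 (SE 0.18) in JV101 over saline. *Bhlhe40* was 0.48 (SE 0.13) in JV101 over saline. In NX saline over sham saline the Wnt inhibitor *Sfrp5* was −2.43 (SE 0.50) and *Niban3* −2.26 (SE 0.42). The 4 other genes of the smallest p had 5 or fewer counts in some group and are not described.

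Fibroblast and endothelial genes had mostly positive fold changes in these fits, with medians nearer 0 once the ratio entered as a term, and none passed in either case. In NX over sham the log2 fold change was 0.30 (SE 0.36) for *Dcn*, 0.45 (SE 0.39) for *Pecam1* and −0.38 (SE 0.27) for *Myh6*. With the log2 ratio as a covariate the values were −0.10 (SE 0.09), −0.02 (SE 0.19) and −0.01 (SE 0.12). These genes make up the ratio, so the shift follows from the fit's construction. Outside the ratio, 23 of 24 fibroblast genes were positive in NX over sham with a median of 0.34, against a median of 0.01 for all genes, and 0 passed. With the covariate 10 of 24 were positive and the median was −0.06. For 25 endothelial genes the median was 0.48 with 24 positive, and 0.07 with 16 positive with the covariate. These 2 lists follow the ratio across libraries, with rich minus poor medians of 1.38 and 1.43. A shift of their medians towards 0 is therefore also built into a fit that holds the ratio, and is no separate evidence. In NX saline over sham saline the fibroblast median was 0.31 and −0.11 with the covariate, and the endothelial median 0.59 and 0.02. In JV101 over saline the fibroblast medians were 0.40 and 0.03, and the endothelial ones 0.21 and −0.08. These medians rested on single libraries. In NX over sham the fibroblast median was 0.74 without sham JV101 1, 0.14 without sham JV101 3 and 0.11 without NX JV101 2. The endothelial median there was 0.79 without sham JV101 1, 0.29 without sham JV101 3 and 0.24 without NX saline 3. In JV101 over saline both turned sign without sham JV101 1, to −0.02 with 9 of 24 positive for fibroblast genes and −0.04 with 4 of 25 positive for endothelial genes. The fibroblast median of that comparison was 0.18 without NX JV101 2 and 0.60 without sham JV101 3. The endothelial one was 0.07 without NX JV101 2, 0.04 without NX saline 1, 0.43 without NX saline 3 and 0.41 without sham JV101 3. In NX saline over sham saline the fibroblast median was 0.51 without NX saline 1, 0.19 without sham saline 1 and 0.56 without sham saline 3, and the endothelial median 0.91 without NX saline 1 and 0.16 without NX saline 3. With limma on log2(FPKM + 1) the endothelial medians were 0.32 in JV101 over saline and 0.39 in NX saline over sham saline, and on log2(FPKM + 0.1) the fibroblast median of NX over sham was 0.52. These comparisons share libraries, so they are not independent of each other. With the covariate 579, 685 and 712 genes had an unadjusted p under 0.05 in the 3 comparisons, and 0 passed in each.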

How the data were processed

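RNA of isolated cardiomyocytes from 12 heart samples was sequenced as polyA libraries (RNeasy RNA, VAHTS Universal V6 kit), per the labels' protocols. The submitters' processing notes name fastp, HISAT2, HTSeq and the genome build GRCm39. The sources used here give no versions, gene annotation or strand setting. Raw counts were deposited by the authors for 22794 genes, with FPKM for the same libraries. The counts carried all main values. FPKM, deposited by the authors, gave levels per length and an alternative. Gene lengths implied by both did not differ between libraries (9643 genes compared). Of the gene symbols 22119 (97.0%) were found in reference tables of GRCm38.p6, which served for names only.

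The members and the gene lists were chosen with earlier results of these data known. Genes were kept with filterByExpr of edgeR 4.0.16 (minimum count 10, minimum total 15), which left 14412, and scaled with TMM; log2 CPM used a prior count of 2. Of 573 list genes 20 are not in the table. Named genes were the 7 of the ratio, the 12 largest differences in each direction among non-overlapping genes with 5 CPM or more, up to 4 genes per list with 1 CPM or more, and in the study's comparisons the 2 smallest p in each direction. Other members are named with values as examples and were picked after their values were seen. The study's comparisons used edgeR's quasi-likelihood test over 12 libraries with Benjamini-Hochberg adjustment (threshold 0.05), tested on simulated data. The ratio was compared by exact permutation of libraries. Libraries of one group correlated at 0.913 to 0.974 and 0 had identical columns. R 4.3.3, limma 3.58.1 and DESeq2 1.42.0 were also used. Antisense and overlapping genes cannot be told apart where strand was not counted. Some genes that these rules name are not reported here.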

Additional observations from a re-analysis of the deposited data

Results flagged for a closer look

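Each measure was examined in the rich, middle and poor libraries apart, which gave 141 groups of 4 libraries. In 8 of the 141 groups a library stood far from the other 3. Chance gives about 1 in 20, and 8 in 141 is near that share. None of the 8 was explained by a test here.

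NX saline 3 had a mitochondrially encoded share of 66.5% among the rich libraries, whose others ran from 41.1% to 45.1%. NX saline 2 stood below the other rich libraries for *Pecam1*, at 7.57 in log2 CPM. Among the poor libraries, sham saline 2 had a platelet score of 0.65 and a hypertrophy and load score of −0.56, and sham saline 1 had an interferon score of 0.99. Among the libraries between the sets, sham saline 3 had 2.39 times as many fibroblast as endothelial counts, sham JV101 2 had an atrial score of −1.69 and NX JV101 3 an antigen presentation score of 0.51.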

How the results depend on the processing

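The counts of 978 higher and 107 lower genes were 893 and 131 with RLE factors and 896 and 131 without mitochondrially encoded genes. With library totals 1022 were higher and 32 lower, with no filter on low counts 989 and 171, with a mean of at least 5 CPM 545 and 34, with log2(FPKM + 1) 370 and 1, and with a log2 difference of at least 0.5 1536 and 568. Scaling to sarcomere genes, chosen after seeing the data, gave 1768 and 9. The 3 highest against the 3 lowest libraries gave 1870 and 328, and the 6 highest against the 6 lowest 59 and 7, where more libraries must not overlap. With 6 cardiomyocyte genes as denominator, sham JV101 2 replaced sham saline 2 in the poor set and 788 of the 978 remained. With study group means subtracted, 815 were higher, of which 453 were among the 978. Leaving out 1 library gave 722 to 1464 higher and 85 to 226 lower genes. Named genes kept their values within the spread in 3013 of 3136 checks, and gene lists in 641 of 679. Of 157 named genes 17 turned sign in at least 1 alternative; of these only *Hspd1* and *Atp5b* had sets that did not overlap, and none met the rule for higher or lower.

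The log2 ratio, NX minus sham, was 0.48 to 1.25 without 1 library, and JV101 minus saline −0.0444 to 0.768, with −0.0031 without sham JV101 1. DESeq2 called *Niban3* in NX against sham, *Lrp2*, *Lrrn4*, *Msln*, *Muc16* and *Upk3b* in JV101 against saline, and *Niban3* in NX saline against sham saline, 1, 5 and 1 genes. The cause of these changes was not tested. The 3 and 6 library splits, leaving out 1 library, the filter and the fold threshold change the number of genes by their own construction. Replicate numbers did not pair the libraries: 6 of 18 same-numbered pairs had a correlation of deviations over 0.1, and 2 of 12 libraries were closest to a library of their own number. With the replicate block the ratio gave exact permutation p of 0.25 and 0.685 for the same differences of 0.82 and 0.31, and edgeR called 0 genes in each comparison.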
